A study of Mus musculus with 10 samples.

Results

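The chaperone and unfolded protein response genes of mouse CA3 were compared between tissue injected with a virus carrying a Mef2c hairpin and tissue injected with a scrambled hairpin. The 85 genes were chosen by symbol from an annotation of the mouse genome, among 18453 gene rows in each count file. They were the protein-coding J-domain genes Dnaja, Dnajb and Dnajc, the Hspa (Hsp70), Hsp90 and Hspb genes (most of these small heat shock proteins), and 16 genes taken by name, among them the chaperonin Hspd1, the heat shock factor Hsf1, the unfolded protein response sensors Atf6, Ern1 and Eif2ak3, and the factors Xbp1, Atf4 and Ddit3. Bulk polyA+ RNA of CA3, the hippocampal field of recurrently connected pyramidal neurons, was sequenced from C57BL/6J mice labelled male, although the injection protocol names both sexes. Adeno-associated virus was injected on both sides of the brain. The tested libraries, 5 in all, came from mice given AAV-shRNA(mef2c), and the 5 control libraries from mice given AAV-shRNA(scramble), so every library analysed here came from virus-injected tissue. The age of the mice, the promoter of the hairpin and whether each library was a separate animal were not given in the sources used here, so p-values measure the spread between libraries, which may be technical.

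Chaperones hold, fold and refold other proteins. Hsp70 proteins bind and release exposed protein segments in a cycle of ATP hydrolysis, which J-domain proteins speed up and nucleotide exchange factors reset, and Hsp90, the chaperonins and the small heat shock proteins act beside them. The unfolded protein response is the corresponding alarm of the endoplasmic reticulum (ER): the membrane sensors IRE1 (Ern1), PERK (Eif2ak3) and ATF6 detect unfolded protein and, through XBP1, ATF4 and cleaved ATF6, raise the genes of ER folding. HSF1 does the like for the cytosol. In neurons, J-domain proteins also work at the synapse, where auxilin (Dnajc6) uncoats clathrin vesicles and cysteine string protein (Dnajc5) protects the release machinery.

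Library totals were 15669620 to 17798090 counts in the Mef2c shRNA group and 14701928 to 15637076 in the scramble group, and every Mef2c shRNA library was deeper. Mef2c itself, the targeted gene (chr13:83504034-83667080, plus strand), had 110.5, 131, 121, 163 and 286 CPM (read counts scaled to library size, adjusted by trimmed mean of M values) in Mef2c shRNA libraries 1 to 5, against 166, 198, 176, 312 and 175 CPM in scramble libraries 1 to 5. The library labelled Mef2c shRNA 5 had more Mef2c than 4 of the 5 scramble libraries, and the groups overlapped. Mef2c shRNA over scramble gave -0.34 on the log2 scale with a standard error (SE) of 0.30, which did not pass the test (edgeR quasi-likelihood, adjusted p = 0.489). Without the library labelled Mef2c shRNA 5 it was -0.64, and without scramble 4 it was -0.14, again without a call (adjusted p = 0.0877 and 0.799). CA3 markers were present in all libraries (summed CPM of 7 markers 929 to 1310 in Mef2c shRNA and 960 to 1120 in scramble), beside those of CA1 (518 to 622 and 587 to 650) and of dentate granule cells (408 to 679 and 472 to 619). Of 12 microglial markers, 6 rose (sum 472 to 953 CPM in Mef2c shRNA and 394 to 567 CPM in scramble), as did 2 of 12 interferon-stimulated genes, against 4.66% of all genes. The latter summed to 190, 494, 411, 462 and 73.7 CPM in Mef2c shRNA libraries 1 to 5 and to 63.9 to 196 CPM in scramble, with Mx1 at 0 in scramble library 5. With transcript length and GC content corrected for, 1 microglial marker and 0 interferon-stimulated genes were called. The part of these cells and genes in the results below was not tested, and in bulk tissue fewer cells of a type and less RNA per cell cannot be told apart.

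Few chaperone and unfolded protein response genes were called. Of the 85 members, 75 passed the filter on low counts, and 5 of these were called at an adjusted p under 0.05, which is 6.67%, against 12.3% of all 14393 genes tested. Xbp1 and Hspb6 rose (2.67% of the members tested, against 4.66% of all genes), and Hspa4l, Dnajb14 and Dnajc13 fell (4% of the members tested, against 7.61% of all genes). The median log2 fold change was 0.017 over the 75 members and 0.0159 over all genes, with 41 members positive and 34 negative and a range of -0.47 (Hspa4l) to 0.61 (Dnajb3, not called). At an unadjusted p under 0.05 there were 20 members (26.7%), near the 30.1% of all genes. The number of calls rested on single libraries, in the members as in all genes. It was 16 (21.1%) without Mef2c shRNA library 1, against 22.8% of all genes. It was 2 without Mef2c shRNA library 2 (2.67%, against 5.09% of all genes) or without scramble library 2 (2.63%, against 4.35%). It was 3 without Mef2c shRNA library 3 (4%, against 7.85% of all genes) or without scramble library 1, 4 or 5 (3.95% each, against 6.82%, 5.22% and 4.64%). None of the 5 calls held when transcript length and GC content were corrected for. Nor did any hold when Mef2c shRNA libraries 2, 3 and 4 were left out together, which left no edgeR call among all genes either. At an unadjusted p under 0.05 there were then 8 members (10.7%), against 2590 of all genes (17.6%).

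For most tested members the fit without the correction for length and GC content limits how large a change could be. Some corrected estimates lay outside these limits. The interval of Dnajc5 was -0.22 to 0.04 and its corrected value 0.13. For Dnaja1 these were -0.21 to 0.03 and 0.08, and for Atf4 -0.117 to 0.1489 and -0.1489. The 95% confidence interval of the fold change lay within 1.5-fold in either direction for 67 of the 75 tested members and within 1.25-fold for 43. The 8 with a wider interval were Hspa4l and Hspb6, both called, and Hspb1, Ern1, Dnajb13, Dnajc25, Dnajb3 and Hspa1b. All members together made up 0.94% to 1.01% of the counts in Mef2c shRNA libraries (mean 0.969%) and 0.975% to 1.01% in scramble libraries (mean 0.994%).

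**Figure D1:**
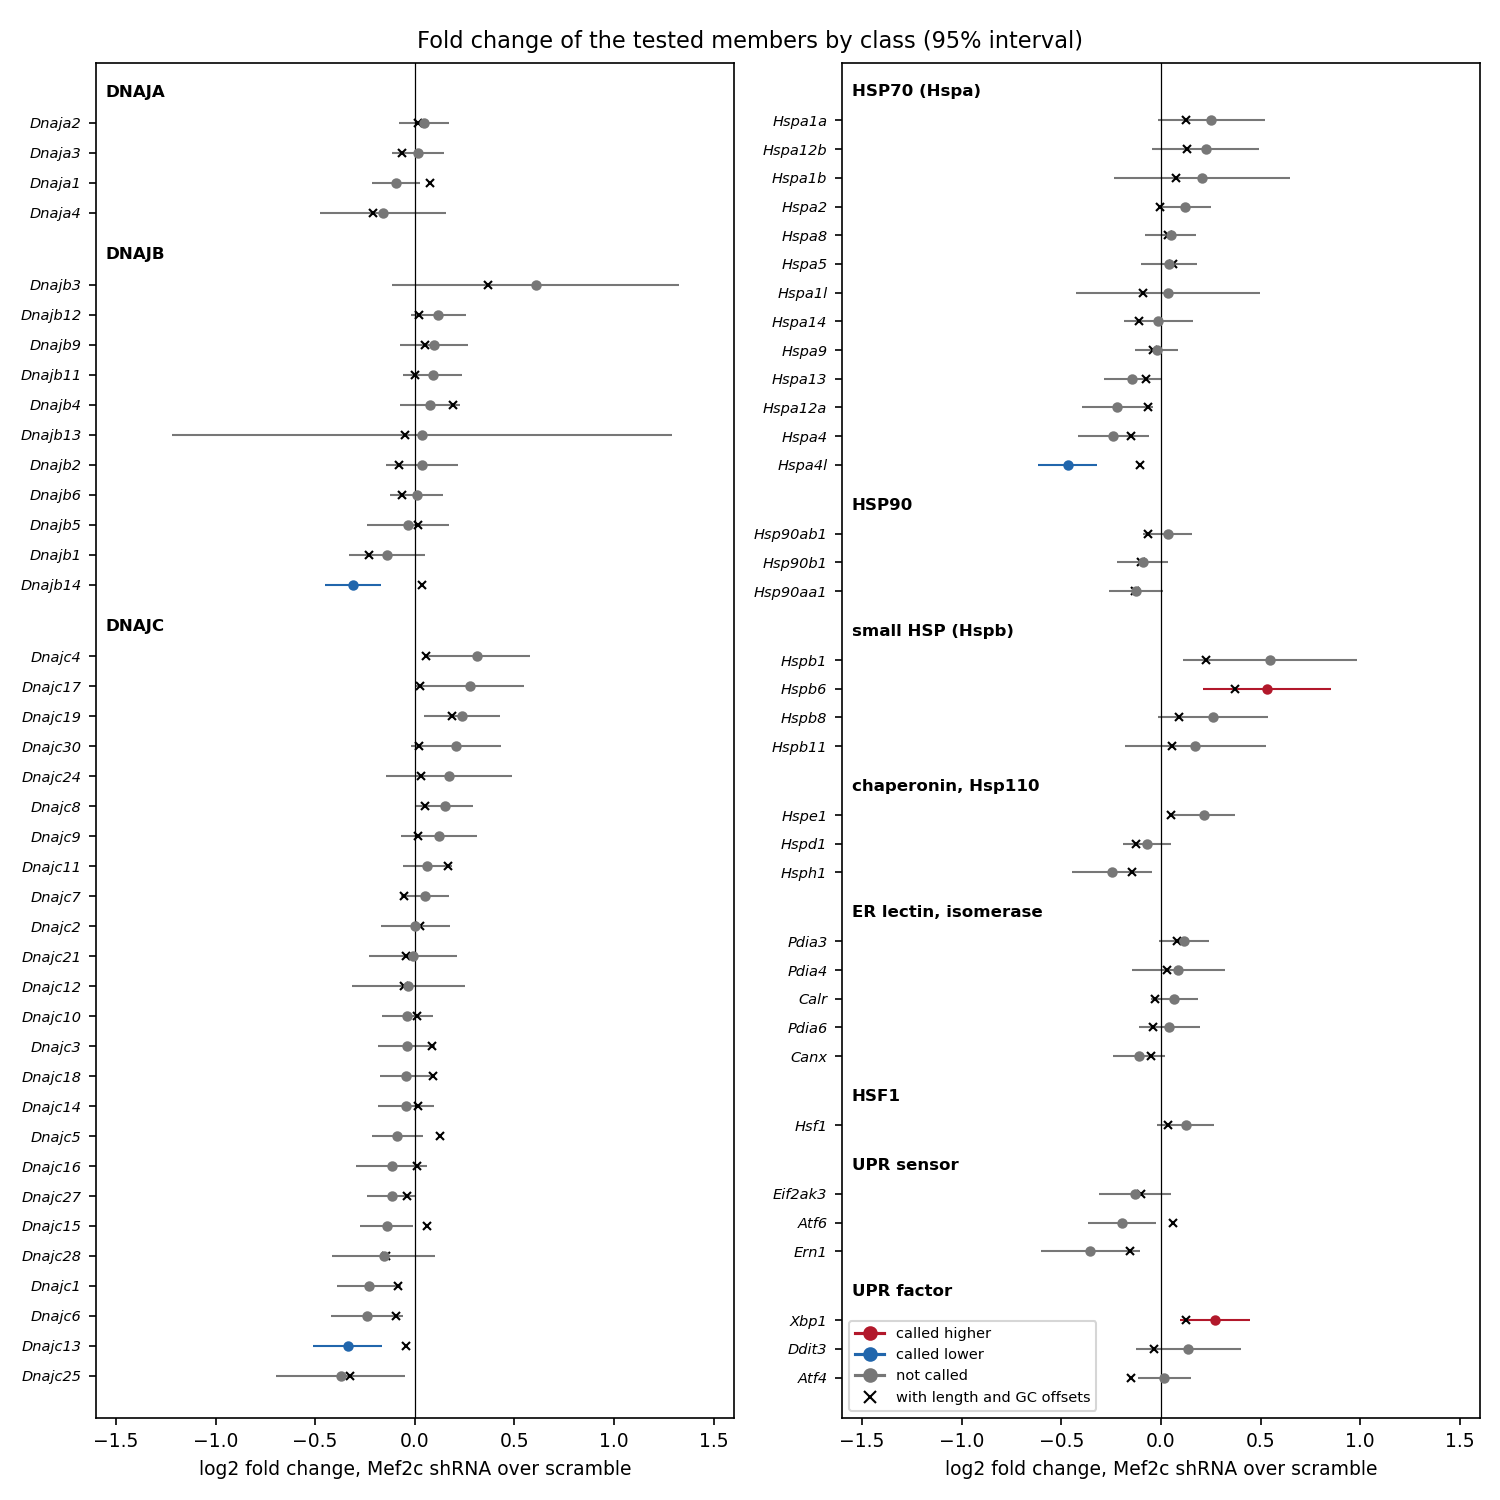
Log2 fold change (Mef2c shRNA over scramble, x axis) of the 75 tested members with its 95% confidence interval, grouped by class. Red marks the 2 members called higher, blue the 3 called lower and grey those not called, and black crosses give the estimate after correction for transcript length and GC content, under which none was called.

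The ER chaperones lay near equal levels in both groups, and none was called. Hspa5 (BiP, the Hsp70 of the ER and the classical target of the unfolded protein response; chr2:34771970-34777547, plus strand) had 201.5, 177, 168, 159 and 176 CPM in Mef2c shRNA libraries 1 to 5, against 180.1, 169, 163, 171 and 174 CPM in scramble libraries 1 to 5. Mef2c shRNA library 1 was the highest of all 10 and library 4 the lowest, so the groups overlapped throughout. The log2 fold change of Hspa5 was 0.04 with a 95% interval of -0.10 to 0.18 (edgeR adjusted p = 0.724). Hsp90b1 (GRP94, the Hsp90 of the ER) had 185, 170.4, 169, 153 and 171 CPM in Mef2c shRNA libraries, against 173, 192, 174, 182 and 182.5 CPM in scramble libraries (log2 fold change -0.09, interval -0.22 to 0.04, edgeR adjusted p = 0.32). The lectin chaperones, which hold glycoproteins during folding, were Calr at 278 ± 15.1 and 266 ± 5.62 CPM and Canx at 263 ± 17.9 and 284 ± 9.72 CPM in Mef2c shRNA and scramble (mean ± SD, n = 5 each). Their log2 fold changes were 0.07 and -0.11, and those of the disulfide isomerases Pdia3, Pdia4 and Pdia6 were 0.12, 0.09 and 0.04, all with an edgeR adjusted p between 0.199 (Pdia3) and 0.735 (Pdia6). The J-domain partners of BiP showed the like: Dnajb9 (ERdj4) differed by 0.10, Dnajb11 (ERdj3) by 0.09, Dnajc3 (ERdj6) by -0.04 and Dnajc10 (ERdj5) by -0.04 on the log2 scale, none called. Dnajc1 (ERdj1) was at 30.3 ± 2.90 CPM in Mef2c shRNA and 35.5 ± 1.51 CPM in scramble, a log2 difference of -0.23 that missed the threshold with all libraries (edgeR adjusted p = 0.0611) and passed it without Mef2c shRNA library 1 (-0.28, adjusted p = 0.0132).

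The ER stress response element, the motif through which ATF6 acts with NF-Y, was sought before the members' starts. It is printed for the uncalled ER genes that carry it. The 250 bases before and 50 after the start of transcription were taken from RefSeq (GRCm38.p6) and matched to 69 of the 85 members, in 86 windows. CCAAT followed after any 9 bases by CCACG, sought on both strands, stood in 6 of the 86 member windows (6.98%), against 39 of all 32544 windows (0.12%). The members were chosen as chaperone and unfolded protein response genes, so the larger share follows from that choice and is not a result of these data. The 6 genes with the element had log2 fold changes between -0.11 (Canx) and 0.07 (Calr), with a median of -0.000565, and none was called. The other ER genes described above, Pdia3, Pdia4, Dnajb9, Dnajb11, Dnajc10 and Dnajc1, had no match to it. Capitals below mark the fixed letters of the motif, each read 5′ to 3′ on the strand that carries it.
Hspa5 (chr2:34772025-34772043, plus strand): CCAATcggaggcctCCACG
Hsp90b1 (chr10:86705533-86705551, plus strand): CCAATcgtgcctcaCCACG
Hsp90b1 (chr10:86705638-86705656, minus strand): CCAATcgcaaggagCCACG
Calr (chr8:84847075-84847093, plus strand): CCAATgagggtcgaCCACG
Canx (chr11:50325800-50325818, minus strand): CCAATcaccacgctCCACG
Pdia6 (chr12:17266491-17266509, plus strand): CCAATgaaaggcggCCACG
Dnajc3 (chr14:118937827-118937845, plus strand): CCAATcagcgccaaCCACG
In Hspa5 the element lay 65 bases before the start, on the strand of the gene. The upstream 250 bases of Hspa5 (chr2:34771840-34772089, plus strand) are given with the element in capitals.
Hspa5: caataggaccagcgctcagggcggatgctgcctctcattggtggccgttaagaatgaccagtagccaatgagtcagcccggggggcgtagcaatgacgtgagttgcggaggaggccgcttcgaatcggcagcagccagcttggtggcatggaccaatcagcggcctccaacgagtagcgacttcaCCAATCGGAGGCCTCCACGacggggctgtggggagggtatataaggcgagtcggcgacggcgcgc
The related element ATTGG followed after any 1 base by CCACG stood in the window of Dnajb11 and in 0.0369% of all windows, and TGACGTGG, the element named for the unfolded protein response, in that of Dnajc25 and in 0.682% of all windows. TGATGCAAT, an amino acid response element bound by ATF4 with C/EBP factors, stood in no member window and in 0.184% of all windows. A match is a description of the letters and not a binding site.

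Of the signalling genes of the unfolded protein response, Xbp1 was the only one called with all 10 libraries in the fit. Xbp1 (chr11:5520659-5525893, plus strand), whose mRNA IRE1 splices into the form that encodes the active factor, had 54.9, 66.9, 61.7, 69.6 and 76.6 CPM in Mef2c shRNA libraries 1 to 5, against 55.4, 52.1, 58.0, 55.7 and 52.2 CPM in scramble libraries 1 to 5. Mef2c shRNA library 1 lay within the scramble range and the other 4 lay above it. Xbp1 rose by 0.27 on the log2 scale (SE 0.08, edgeR adjusted p = 0.0455). That call was lost on leaving out any single library other than Mef2c shRNA 1 or scramble 3, with adjusted p between 0.0594 (without Mef2c shRNA 3) and 0.112 (without scramble 2), while the fold change stayed at 0.21 or above. Gene counts do not separate the spliced from the unspliced form.

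The 3 sensors all had negative log2 fold changes and none was called. Ern1 (IRE1) had 18.2, 14.8, 16.6, 19.9 and 12.8 CPM in Mef2c shRNA libraries, against 21.5, 20.4, 18.03, 22.8 and 22.4 CPM in scramble libraries. Mef2c shRNA libraries 1 and 4 reached into the scramble range, and the log2 difference was -0.35 (SE 0.12, edgeR adjusted p = 0.061). Without Mef2c shRNA library 1 or 4, or without scramble library 3, Ern1 passed the threshold (adjusted p = 0.0359, 0.041 and 0.048). Atf6 had 93.6, 82.2, 91.9, 82.4 and 68.1 CPM in Mef2c shRNA libraries, against 96.5, 92.3, 90.0, 100.7 and 98.8 CPM in scramble libraries (log2 fold change -0.19, edgeR adjusted p = 0.12). Mef2c shRNA library 5 was the lowest of the 10, and without Mef2c shRNA library 1 the difference was -0.24 with an adjusted p of 0.0466. With the correction for length and GC content the log2 fold change was 0.06 for Atf6 and -0.15 for Ern1 (edgeR adjusted p = 0.637 and 0.471). For Eif2ak3 (PERK) the Mef2c shRNA libraries had 29.0, 22.8, 23.6, 26.6 and 22.7 CPM, against 25.02, 26.9, 28.8, 27.7 and 27.8 CPM in scramble libraries, so that the highest of all 10 was a Mef2c shRNA library (log2 fold change -0.13, edgeR adjusted p = 0.322).

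Downstream of PERK, Atf4 had 79.3, 91.4, 82.7, 92.8 and 85.6 CPM in Mef2c shRNA libraries, against 84.7, 80.6, 91.4, 88.0 and 82.5 CPM in scramble libraries. The groups were interleaved, with a log2 fold change of 0.02 and a 95% interval of -0.12 to 0.15 (edgeR adjusted p = 0.892). Atf4 is regulated in large part by translation, which mRNA counts do not measure. Ddit3 (CHOP, a pro-apoptotic target of ATF4) had 13.7, 21.7, 18.9, 22.0 and 19.02 CPM in Mef2c shRNA libraries, against 16.8, 16.0, 20.7, 16.7 and 16.6 CPM in scramble libraries (log2 fold change 0.14, edgeR adjusted p = 0.484). Scramble library 3 lay in the upper part of the Mef2c shRNA range and Mef2c shRNA library 1 was the lowest of all. Ddit3 shares 68 bases with Mars on the opposite strand, and since the strand setting of the counting was not given in the sources used here, reads there cannot be assigned to one of them. Trib3, a pseudokinase induced by ATF4 and CHOP, did not pass the count filter, with 6, 19, 14, 15 and 19 counts in Mef2c shRNA libraries, against 6, 9, 8, 5 and 8 counts in scramble libraries. Mef2c shRNA libraries 2 to 5 were above all scramble libraries and library 1 was not. Without a filter Trib3 differed by 0.85 on the log2 scale (SE 0.39, edgeR adjusted p = 0.184). With Mef2c shRNA library 1 left out it passed the filter, but only through Mef2c shRNA libraries 2 to 5, where it was high. The log2 fold change was then 1.03 (SE 0.32, edgeR adjusted p = 0.0331). Since the gene was admitted by the group in which it was high, that p-value is no support for a difference.

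**Figure D2:**
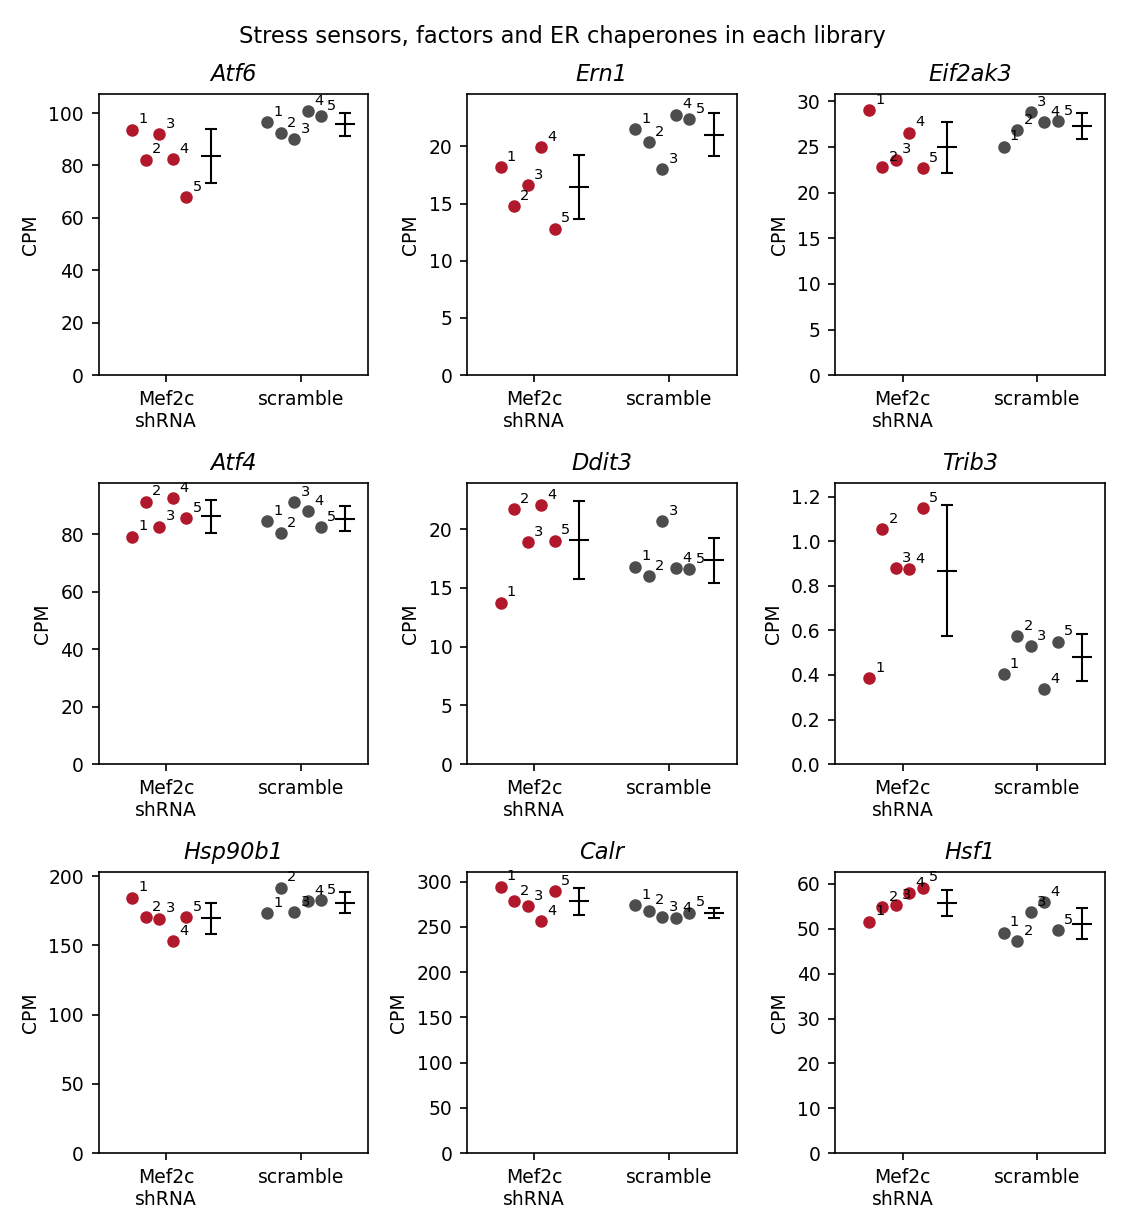
CPM (y axes, from 0) of 9 genes of the unfolded protein response, the ER chaperones and the heat shock response in the Mef2c shRNA libraries (left in each panel) and the scramble libraries (right), numbered by replicate, with mean ± SD (n = 5 each). The groups overlap in every panel, and none of these 9 genes was called.

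The Hsp70 class held the member with the smallest p. Hspa4l (chr3:40744495-40796103, plus strand), a relative of Hsp110 that acts as a nucleotide exchange factor for Hsp70, had 131, 118, 108, 125 and 124 CPM in Mef2c shRNA libraries 1 to 5, against 162, 187, 154, 172.5 and 161 CPM in scramble libraries 1 to 5. All Mef2c shRNA libraries lay below all scramble libraries. Hspa4l fell by 0.47 on the log2 scale (SE 0.07, edgeR adjusted p = 0.00151) and was called whichever single library was left out. It was not called when Mef2c shRNA libraries 2, 3 and 4 were left out together (adjusted p = 0.104), or with the correction for length and GC content (-0.11, adjusted p = 0.328). Its relatives Hspa4 and Hsph1, exchange factors of the same family, had fold changes of the same sign without a call. Hspa4 had 247, 222.5, 207, 202 and 169 CPM in Mef2c shRNA libraries, against 249.6, 251.5, 234, 247 and 254 CPM in scramble libraries (log2 fold change -0.24, SE 0.08, edgeR adjusted p = 0.0737). Hsph1 had 292, 275, 251, 224 and 195 CPM, against 310.3, 301, 278, 289 and 288 CPM in the same order (log2 fold change -0.24, SE 0.09, edgeR adjusted p = 0.095). In both genes Mef2c shRNA library 1 lay inside the scramble range and library 5 was the lowest of all 10. Without Mef2c shRNA library 1 both passed the threshold (adjusted p = 0.0106 for Hspa4 and 0.0211 for Hsph1).

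None of the abundant Hsp70 and Hsp90 genes was called. Per kilobase of the longest transcript, Hsp90ab1 was the highest member over all 10 libraries at 682 CPM per kb, then Hspa8 (Hsc70, the constitutive Hsp70) at 374 and Hsp90aa1 at 260, and these 3 made up 38% to 40.4% of the members' summed CPM in Mef2c shRNA libraries and 37% to 39.1% in scramble libraries. Hsp90ab1 was at 1739 ± 79.2 CPM in Mef2c shRNA and 1699 ± 74.7 CPM in scramble, Hspa8 at 1201 ± 62.2 and 1161 ± 60.8 CPM, and Hsp90aa1 at 817 ± 58.2 and 890 ± 40.1 CPM (mean ± SD, n = 5 each). Their log2 fold changes were 0.03, 0.05 and -0.12, with edgeR adjusted p of 0.732, 0.619 and 0.199. Hspa9 (mortalin, the mitochondrial Hsp70) differed by -0.02 on the log2 scale (interval -0.13 to 0.09). The heat-inducible Hspa1a and Hspa1b, near-identical neighbours on chromosome 17 whose reads the counting may have split, were at 10.5 ± 1.29 and 16.1 ± 4.02 CPM in Mef2c shRNA and 8.81 ± 0.984 and 13.98 ± 3.45 CPM in scramble, without a call (edgeR adjusted p = 0.19 and 0.526). Hsf1, the factor that drives the heat shock genes, had 51.6, 54.8, 55.3, 58.0 and 59.2 CPM in Mef2c shRNA libraries, against 49.2, 47.3, 53.6, 56.0 and 49.8 CPM in scramble libraries (log2 fold change 0.12, edgeR adjusted p = 0.224). Hspa12a, an abundant distant Hsp70 of the brain, had a log2 fold change of -0.22 (edgeR adjusted p = 0.0958), and passed without Mef2c shRNA library 1 (adjusted p = 0.00555).

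The mitochondrial chaperonin genes Hspd1 (Hsp60) and Hspe1 (Hsp10) lie head to head on chromosome 1, share 112 annotated bases on opposite strands and share a promoter, shown here because their values had opposite signs. The upstream 250 bases of Hspe1 (chr1:55087898-55088147, plus strand) hold a pair of overlapping heat shock elements, in capitals, made of TTC and GAA in turn, 3 units each with any 2 bases between units, which also lie in the window of Hspd1 read from the other strand.
Hspe1: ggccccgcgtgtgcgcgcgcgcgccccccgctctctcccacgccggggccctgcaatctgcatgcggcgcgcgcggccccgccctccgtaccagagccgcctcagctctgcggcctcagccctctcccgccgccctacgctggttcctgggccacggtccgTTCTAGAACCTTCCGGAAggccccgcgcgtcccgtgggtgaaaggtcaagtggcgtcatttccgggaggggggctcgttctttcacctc
Hspe1 had 46.5, 52.3, 54.8, 47.5 and 54.4 CPM in Mef2c shRNA libraries, against 46.1, 42.5, 47.1, 40.1 and 44.1 CPM in scramble libraries, with the lowest Mef2c shRNA library inside the scramble range. It differed by 0.22 on the log2 scale (SE 0.07, edgeR adjusted p = 0.0617), and it passed the threshold without Mef2c shRNA library 1 (0.25, adjusted p = 0.0237). Hspd1 had 125, 137.5, 128, 119.8 and 118 CPM, against 136, 132, 132.5, 132 and 128 CPM in the same order (log2 fold change -0.07, edgeR adjusted p = 0.421). The longest transcript was 0.964 kb for Hspe1 and 2.42 kb for Hspd1. Either form of the heat shock element stood in 6 member windows (6.98%), of the genes Dnajb6, Hspd1, Hspe1 and Hsph1, against 0.608% of all windows, and none of these 4 genes was called. The 6 windows are not separate occurrences, since Dnajb6 and Hsph1 each had 2 overlapping windows with the same element, and Hspd1 and Hspe1 share theirs. The members were also chosen as chaperone genes, so the larger share is not a result of these data.

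Of 45 J-domain genes, 40 were tested, of which 2 fell (5%, against 7.61% of all genes) and none rose (against 4.66% of all genes). Dnajb14 (chr3:137867675-137916557, plus strand), a J protein of the ER membrane, had 122.5, 116, 118, 125 and 114 CPM in Mef2c shRNA libraries 1 to 5, against 149, 169.6, 138, 137 and 146 CPM in scramble libraries 1 to 5. The groups did not overlap, and Dnajb14 fell by 0.31 on the log2 scale (SE 0.07, edgeR adjusted p = 0.0106), a call made whichever single library was left out. It was not made when Mef2c shRNA libraries 2, 3 and 4 were left out together (adjusted p = 0.171), and with the correction for length and GC content the log2 fold change was 0.03 (adjusted p = 0.792). Dnajc13 (RME-8, an endosomal J protein of membrane traffic; chr9:104151282-104262930, minus strand) had 70.2, 56.7, 55.8, 71.9 and 58.5 CPM in Mef2c shRNA libraries, against 74.7, 85.5, 80.4, 77.4 and 77.6 CPM in scramble libraries. All its Mef2c shRNA libraries lay below the lowest scramble library, libraries 1 and 4 closest to it. Dnajc13 fell by 0.34 on the log2 scale (SE 0.08, edgeR adjusted p = 0.0185), a call lost without Mef2c shRNA library 2 (adjusted p = 0.0553) or scramble library 2 (0.0605).

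Among the synaptic J proteins, Dnajc6 (auxilin) had 326.5, 275, 309, 265 and 233 CPM in Mef2c shRNA libraries, against 317, 357, 345, 316 and 329 CPM in scramble libraries. Only Mef2c shRNA library 1 lay inside the scramble range, and the log2 fold change of -0.24 (SE 0.08) did not pass (edgeR adjusted p = 0.0734), but did without that library (-0.30, adjusted p = 0.0151). Dnajc5 (cysteine string protein) was at 373 ± 26.7 CPM in Mef2c shRNA and 396 ± 11.7 CPM in scramble (log2 fold change -0.09, edgeR adjusted p = 0.354). The main cytosolic partners of Hsp70 differed little: Dnaja1 by -0.09, Dnaja2 by 0.04, Dnajb1 (Hsp40) by -0.14, and Dnajb6 and Dnajb2, which restrain aggregation of disease proteins, by 0.01 and 0.04 on the log2 scale. Dnaja3, the mitochondrial J protein, differed by 0.02, Dnajb5 by -0.03 and Dnajc7 by 0.05, none called. In 2 uncalled J-domain genes the groups did not overlap. Dnajc19, of the mitochondrial import motor, had 15.4, 17.0, 14.4, 16.2 and 17.2 CPM in Mef2c shRNA libraries, against 14.2, 13.9, 13.6, 12.3 and 14.02 CPM in scramble libraries (log2 fold change 0.24, edgeR adjusted p = 0.0906), and it overlaps Fxr1 on the opposite strand over 14303 bases of its gene. Dnajc25 had 3.07 to 3.94 CPM in Mef2c shRNA libraries and 3.95 to 4.86 CPM in scramble libraries (log2 fold change -0.37, edgeR adjusted p = 0.115). In all, 2 members lay wholly above scramble (against 3.3% of all genes) and 4 wholly below (against 6.04%): Hspb6 and Dnajc19, and Hspa4l, Dnajb14, Dnajc13 and Dnajc25. Dnajb13, a sperm and cilium J protein, was at 0.408 to 3.53 CPM in Mef2c shRNA and 0.512 to 2.14 CPM in scramble. Its highest value in each group was in the library with the highest sum of 7 choroid plexus and ependymal markers, 2770 CPM in Mef2c shRNA library 1 and 1990 CPM in scramble library 4.

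**Figure D3:**
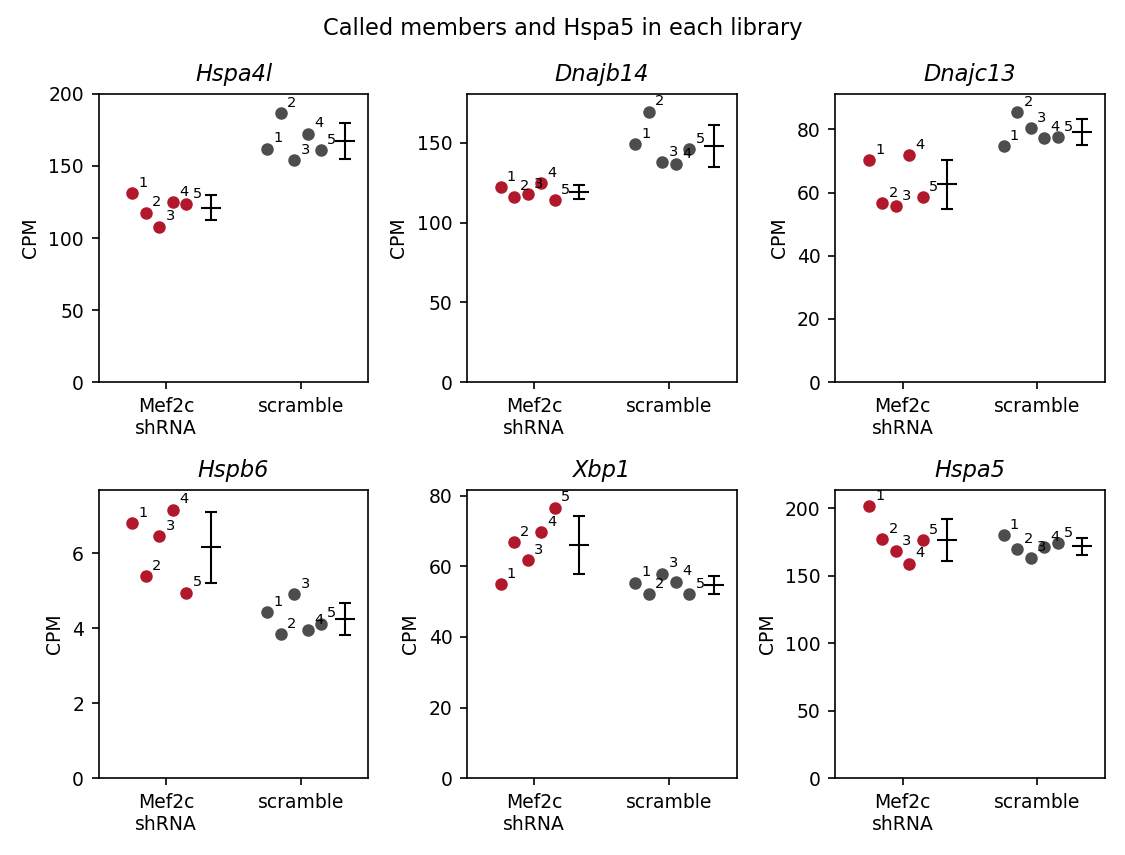
CPM (y axes, from 0) of the 5 called members and of Hspa5 in the Mef2c shRNA libraries (left in each panel) and the scramble libraries (right), numbered by replicate, with mean ± SD (n = 5 each). Hspa4l, Dnajb14, Dnajc13 and Hspb6 do not overlap between groups, Xbp1 overlaps through Mef2c shRNA library 1, and the values of Hspa5 overlap throughout.

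The 4 tested genes with an Hspb symbol had positive log2 fold changes, with a median of 0.40, and 1 was called. That is 25%, a share resting on 1 gene, against 4.66% of all genes called higher and 12.6% of all genes under 2 kb. Hspb1, Hspb6 and Hspb8 encode small heat shock proteins, ATP-independent holdases, while Hspb11 is IFT25, a protein of intraflagellar transport. All 4 had a longest transcript under 2 kb, a length at which only 16.1% of all genes were negative, and with the correction for length and GC content the median was 0.16 and none was called. Hspb6 (Hsp20, known from muscle; chr7:30552178-30555443, plus strand) had 6.81, 5.38, 6.46, 7.17 and 4.95 CPM in Mef2c shRNA libraries 1 to 5, against 4.44, 3.84, 4.91, 3.95 and 4.13 CPM in scramble libraries 1 to 5. The groups did not overlap, although Mef2c shRNA library 5 and scramble library 3 were nearly level. Hspb6 rose by 0.53 on the log2 scale (SE 0.15, edgeR adjusted p = 0.0366). The call held without Mef2c shRNA library 1 or 5 or scramble library 3 and was lost without any other single library, with adjusted p between 0.0542 (without Mef2c shRNA 2) and 0.0932 (without scramble 2). Its gene overlaps Proser3 by 122 bases and Lin37 by 3 bases on the opposite strand. Hspb1 (Hsp27) had 5.91, 5.77, 4.77, 5.48 and 9.30 CPM in Mef2c shRNA libraries, against 5.11, 5.18, 3.18, 3.62 and 4.26 CPM in scramble libraries. Mef2c shRNA library 5 stood above all others, and the log2 fold change of 0.55 (SE 0.20) was not called (edgeR adjusted p = 0.0895). Hspb8, a partner of Bag3, was at 15.8 ± 2.67 and 13.2 ± 1.65 CPM in Mef2c shRNA and scramble (log2 fold change 0.26, edgeR adjusted p = 0.189). Hspb11 was at 3.54 ± 0.227 and 3.14 ± 0.486 CPM in Mef2c shRNA and scramble (log2 fold change 0.17, edgeR adjusted p = 0.516). Vascular markers, whose cells also hold small heat shock proteins, summed to 281 to 341 CPM in Mef2c shRNA and 290 to 324 CPM in scramble, with 1 of 10 (Cldn5) higher. The 8 astrocyte markers summed to 4610 to 5960 CPM in Mef2c shRNA and 5210 to 5850 CPM in scramble. Of them Aldh1l1 rose, Slc1a2 fell, and Gfap was at 901 ± 388 CPM in Mef2c shRNA and 487 ± 130.2 CPM in scramble without a call (edgeR adjusted p = 0.149). The part of these cells in the values of the Hspb genes was not tested.

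The filter on low counts left out 10 members: Trib3, described above, and Hspb2, Hspb3, Hspb7, Hspb9, Dnajb7, Dnajb8, Dnajc5b, Dnajc5g and Dnajc22. Each of the other 9 had at most 11 counts in any library. Dnajc5b and Dnajc5g, known from testis, had 0 counts in all 5 Mef2c shRNA libraries, and in scramble 2 counts (library 2) and 3 counts (library 3), so no difference was detectable at this depth.

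The signs of the members' fold changes followed transcript length. Of the 26 tested members whose longest annotated transcript exceeded 4 kb, 24 had a negative log2 fold change and 3 fell, with a median of -0.14. Of the 14 under 2 kb, 13 had a positive one and 1 rose, with a median of 0.21, and the 35 between had 26 positive, 1 called (Xbp1) and a median of 0.04. The same order held over all genes: the medians were -0.13 over 4 kb, 0.06 between and 0.20 under 2 kb, with 74.5%, 35.1% and 16.1% of genes negative and with 17.4% of the longest called lower and 12.6% of the shortest called higher. Across genes, which are not independent and here share the same 10 libraries, Spearman's rho between log2 fold change and length was -0.785 over the members and -0.563 over all genes tested. The 3 members that fell were Hspa4l and Dnajb14, both with a longest transcript of 9.48 kb, and Dnajc13 with 8.01 kb, while Hspb6 had 1.98 kb and Xbp1 2.13 kb. The sensors Atf6 (7.25 kb), Ern1 (6.95 kb) and Eif2ak3 (4.51 kb) were all in the longest class.

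The relation with length differed between libraries of 1 group. The slope of a library's log2 deviation on log2 length was fitted together with GC content, over all tested genes with an annotated length. It was 0.0454, -0.134, -0.0697, -0.0805 and -0.149 in Mef2c shRNA libraries 1 to 5, against 0.0558, 0.0922, 0.0433, 0.0991 and 0.0978 in scramble libraries 1 to 5. Mef2c shRNA library 1 lay within the scramble range and the other 4 lay below 0. Among the 26 long members, 9, 19, 15, 18 and 22 lay below every scramble library in Mef2c shRNA libraries 1 to 5, and library 5 was the lowest of all 10 in 17 of them. When each library's trend with transcript length and GC content was taken out as an offset, none of the 75 members was called, against 1.65% of all genes, and 11 had an unadjusted p under 0.05 (14.7%, against 17.6% of all genes). Under that correction the log2 fold change was -0.05 for Dnajc13 (adjusted p = 0.781), 0.37 for Hspb6 (0.212) and 0.13 for Xbp1 (0.367). The sign of Dnajb14 turned, Hspa4l was at -0.11, and the value of Hspb1, another of the 4 that moved most, was 0.22 (adjusted p = 0.596). The tested members named above as passing only without some library were not called with the correction either. Their log2 fold changes were -0.15 for Ern1 and Hspa4, -0.14 for Hsph1, -0.10 for Dnajc6, -0.08 for Dnajc1 and -0.06 for Hspa12a. Those of Hspe1 and Atf6 were 0.05 and 0.06. Mef2c shRNA library 1, with the least Mef2c of its group (110.5 CPM), had a slope of 0.0454. Library 5, with the most (286 CPM), had the lowest slope, -0.149. Whether the slope follows the level of Mef2c was not tested. With 4 of the 5 Mef2c shRNA libraries below all scramble libraries in this slope, the slope and the hairpin cannot be told apart.

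**Figure D4:**
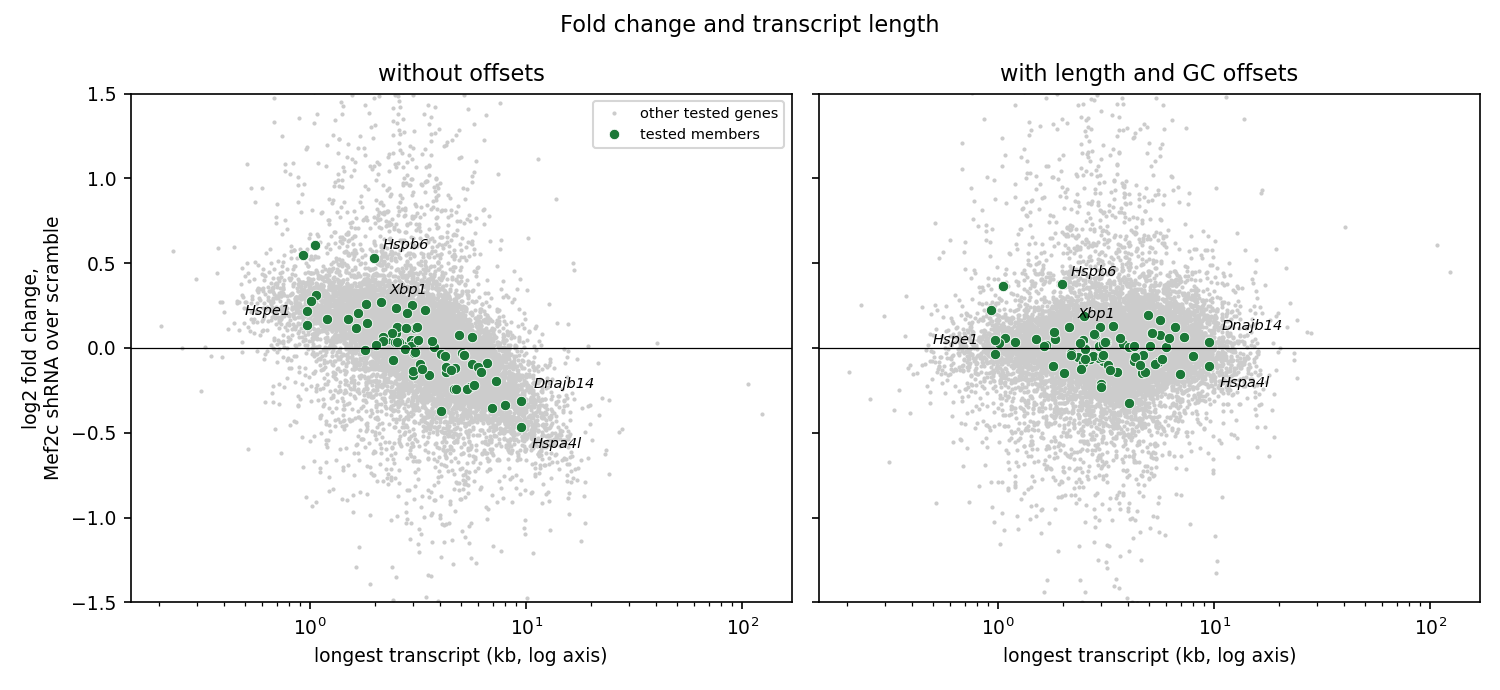
Log2 fold change (Mef2c shRNA over scramble, y axes) against the length of the longest annotated transcript (x axes, log scale, kb) without (left) and with (right) the correction for length and GC content, for members (green) and the other tested genes (grey). The y axes are limited to 1.5 either way, which leaves 118 genes outside on the left and 108 on the right. The downward slope on the left, with long members such as Hspa4l below 0 and short ones such as Hspe1 above 0, is not seen on the right.

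**Figure D5:**
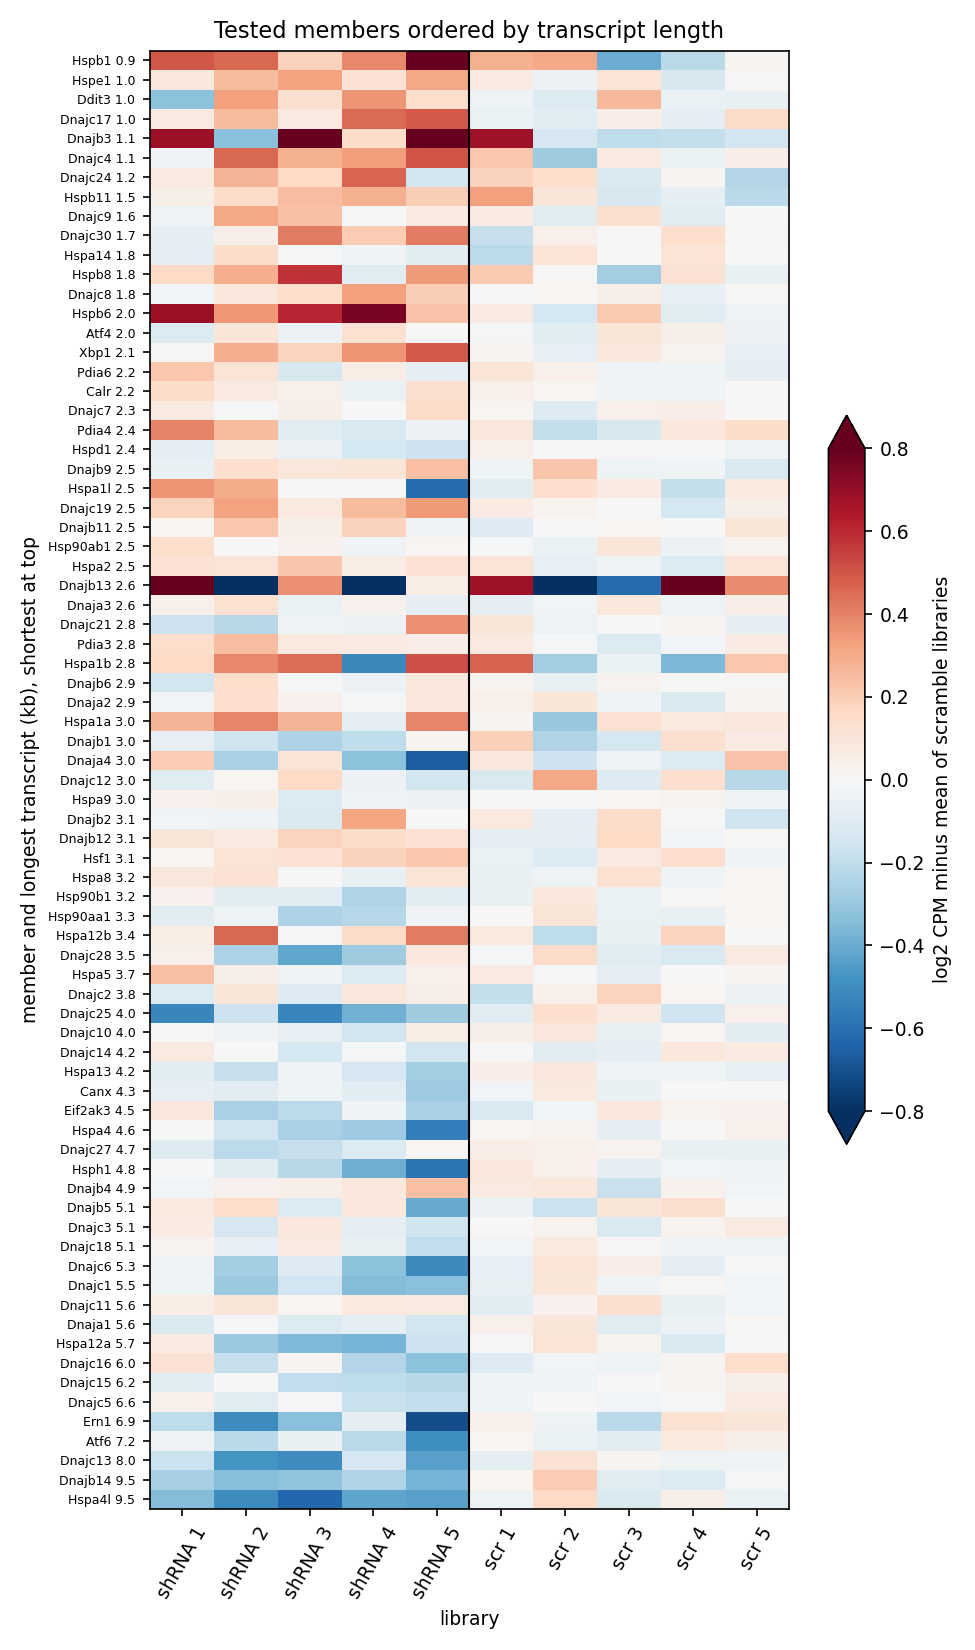
Log2 CPM of the 75 tested members (rows, ordered by transcript length) in each Mef2c shRNA library (left) and scramble library (right), minus the scramble mean, with colours limited to 0.8 either way. Long members are mostly lower in Mef2c shRNA libraries 2 to 5 and nearer to the scramble mean in library 1.

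Spread within a group was small. Among the 64 members at 10 CPM or more, the median coefficient of variation was 7.41% in Mef2c shRNA and 5.25% in scramble, larger in Mef2c shRNA for 50 of the 64. Hspa1b had the largest in both groups, at 24.9% in Mef2c shRNA and 24.7% in scramble.

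Other genes of the same pathways, listed by role, gave 12 calls among 101 tested, with 7 higher and 5 lower. That share, 11.9%, was near the 12.3% of all genes. The CCT chaperonin, which folds actin and tubulin, and prefoldin, which hands it substrates, had no call among 7 and 6 subunits tested, with median log2 fold changes of 0.11 and 0.22. Of 22 cochaperones without a J domain, Hspbp1, an exchange factor of Hsp70, rose to 77.1 ± 8.90 CPM in Mef2c shRNA, against 57.1 ± 3.50 CPM in scramble (log2 fold change 0.43, SE 0.08, edgeR adjusted p = 0.00534). Stub1 (CHIP, the ubiquitin ligase of chaperone clients) rose by 0.27 (adjusted p = 0.0439), and Sugt1, a partner of Hsp90, fell by 0.21 on the log2 scale (adjusted p = 0.0399). Of 27 genes of ER folding and ER-associated degradation, 2 rose and 2 fell. Uggt2, a homologue of the glucosyltransferase that marks misfolded glycoproteins, was at 28.6 ± 3.95 CPM in Mef2c shRNA and 44.0 ± 5.03 CPM in scramble, wholly below scramble (log2 fold change -0.62, SE 0.10, edgeR adjusted p = 0.00313). The mannosidase-like Edem3 fell by 0.28 and its relative Edem2 rose by 0.25 on the log2 scale, and Sil1, the exchange factor of BiP, rose by 0.31 (adjusted p = 0.035, 0.0438 and 0.0383). Of 29 tested genes of the integrated stress response, the stress-induced factors Cebpb and Atf5 rose by 0.56 and 0.32 on the log2 scale and the amino acid transporter chain Slc3a2 by 0.21, while the kinase Eif2ak4 (GCN2) fell by 0.31 and the lipoprotein receptor Vldlr by 0.40 (edgeR adjusted p between 0.00619 for Vldlr and 0.0439 for Eif2ak4). The 7 genes that rose had longest transcripts of 1504 (Cebpb) to 2813 bases (Slc3a2), and the 5 that fell had 5298 (Eif2ak4) to 7971 bases (Vldlr). The 2 tested heat shock factors beside Hsf1 gave no call. Nor did the 8 further genes around the sensors: the proteases Mbtps1 and Mbtps2, the bZIP factors Atf6b, Creb3, Creb3l1 and Creb3l2, the adaptor Traf2 and the pro-apoptotic Bbc3 (PUMA). With the correction for length and GC content none of the 12 was called and 1 other gene was, Cdc37, the kinase-specific partner of Hsp90, at 136 ± 7.21 CPM in Mef2c shRNA and 119 ± 8.83 CPM in scramble (log2 fold change 0.45 with the correction and adjusted p = 0.029, and 0.19 and 0.069 without it). For Cdc37 the correction used a longest annotated transcript of 7851 bases, and whether that transcript is the one expressed here was not tested. The 12 calls were 25 without Mef2c shRNA library 1 and 3 without Mef2c shRNA library 2 or without scramble library 2 or 5.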

How the data were processed

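RNA from CA3 was made into polyA+ libraries and sequenced as paired 150-base reads, per the labels' protocols. The authors' deposited files hold whole-number counts per gene, 1 file a library. HISAT2, featureCounts and the build mm10 are named in the submitters' processing notes, while the sources used here do not give the strand setting, the annotation or the treatment of multi-mapping reads. Groups came from sample titles. For 1 Mef2c shRNA library the treatment tag is misspelt.

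Of 18453 gene IDs, 18445 matched GENCODE M21, which gave symbols, positions and the longest transcript. A further ID named Ddit3 in that annotation had no row. Counts were tested with edgeR 4.0.16 (R 4.3.3): filterByExpr, TMM scaling, robust quasi-likelihood fit over all genes and all 10 libraries, Benjamini-Hochberg adjustment over 14393 genes, and a threshold of 0.05. SE is the log2 fold change divided by the root of F. The biological coefficient of variation was 15.2%. Transcript length and GC content were corrected with offsets from natural splines (5 degrees of freedom) fitted to each library's deviations from the gene means (prior count 2). DESeq2 1.42.0, limma 3.58.1, other scalings and filters, a replicate block and leaving out libraries were alternatives. Replicates of a group differed by 3.83 to 39.2 times the sampling noise (chi-square per degree of freedom), so none was a repeated library.

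The members and lists were chosen with earlier results of these data known. Named genes are Mef2c, the called members, members without overlap between groups, those the membership rule names, the 3 highest per kb in 6 classes, those the filter left out, those the correction moved most, and the 3 smallest p of each pathway list. Other members, and Edem2, Atf5, Eif2ak4 and Cdc37, were named after their values were seen. Motifs in the proteins were not analysed here.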

Additional observations from a re-analysis of the deposited data

Results flagged for a closer look

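In each group of 5 libraries, the highest and the lowest value of Mef2c and of each tested member were compared with the nearest other value, relative to the range of the group. Of 152 such groups, 11 held a library that stood apart (5 in Mef2c shRNA and 6 in scramble), and chance alone sets apart about 1 group in 20.

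In the library labelled Mef2c shRNA 5, Hspb1 stood above the other Mef2c shRNA libraries at 9.3 CPM (next 5.91), as did Dnajc21 at 32 CPM (next 24.2), while Canx stood below them at 232 CPM (next 267). In Mef2c shRNA library 4, Dnajb2 was high at 97.5 CPM (next 78.6) and Hspa1a low at 8.33 CPM (next 10.6).

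In scramble library 4, Mef2c stood above the other scramble libraries at 312 CPM (next 198). In scramble library 2, Dnajb9 was high at 43.5 CPM (next 36.6) and Hspa1a low at 7.1 CPM (next 8.88). Ddit3 in scramble library 3 was high at 20.7 CPM (next 16.8), Dnajb3 in scramble library 1 at 1.35 CPM (next 0.767), and Dnajc5 in scramble library 5 at 416 CPM (next 395). None of these members was among the 5 called.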

How the results depend on the processing

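Beside 5 members called in the main fit, the total was 10 with DESeq2 and 13 with limma-voom (17.3%, against 23.6% of all genes). It was 3 with the replicate number as a block (4%, against 9.12% of all genes). With the length and GC offsets it was 0 without and with the block (11 and 10 at an unadjusted p under 0.05). Leaving out 1 library gave 2 to 16 members. Leaving out the library labelled Mef2c shRNA 5 with scramble 4 gave 3, and leaving out Mef2c shRNA 2, 3 and 4 gave 0 (8 unadjusted). Beside 1766 genes called in all in the main fit, DESeq2 gave 2521, limma-voom 3393, the block 1313, the offsets 238 and the block with offsets 205. Leaving out 1 library gave 631 to 3305, and those sets 1029 and 0 (2590 unadjusted). Beside 12 pathway genes called in the main fit, DESeq2 gave 20, limma-voom 24, the block 4, the offsets 1 and the block with offsets 0 (11 unadjusted). Leaving out 1 library gave 3 to 25, and those sets 6 and 0 (20 unadjusted). Mef2c passed the threshold at a log2 fold change of -0.446 (SE 0.105, edgeR adjusted p = 0.0274) without Mef2c shRNA 5 and scramble 4, a setting that removes the highest Mef2c library of each group, and ranged over -0.642 to -0.139 when 1 library was left out. It was -0.107 with the offsets (SE 0.326, edgeR adjusted p = 0.909) and -0.187 with the block and offsets (0.805). Without Mef2c shRNA 2, 3 and 4 it was -0.0562 (0.957). Dnajb14 turned to 0.0343 with the offsets and 0.0348 with the block and offsets. Other scalings and filters gave 5 or 6 members. The cause of these shifts was not tested beyond what each setting leaves out. Whether replicate numbers pair libraries was not settled. Correlations of same-numbered deviations were 0.239, 0.185, 0.403, -0.114 and 0.0795 for replicates 1 to 5, and only for replicate 3 was the same number the best match. The block ended the calls of Xbp1 (edgeR adjusted p = 0.0836) and Hspb6 (0.0633). Over 75 members and 21 alternatives, 36 values fell short of the threshold where the main value passed it, Dnajb14 with the offsets among them, 26 passed where it had not, and 108 uncalled values changed sign. Depth limits Trib3 and the 9 scarcer members.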
